A study of Rattus norvegicus with 21 samples.

Results

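The cytosolic ribosomal protein genes were followed through the livers of 21 male rats given 1 of 2 compounds. They were taken as the array probe sets annotated with a single gene symbol that begins with Rpl or Rps and a digit, or that is Rpsa or Rplp0, leaving out the Rps6k kinases and annotated pseudogenes. Where a gene had several probe sets, the probe set with the highest mean signal stood for it. This gave 48 genes of 14218 with such a probe set, and 55 of the 31099 probe sets on the array: 29 proteins of the large subunit, 13 of the small subunit and 6 paralogs (Rpl3l, Rpl7l1, Rpl26l1, Rpl39l1, Rps27l and Rps4y2). A further 36 probe sets name a ribosomal protein gene together with another symbol and were kept apart.

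The cytosolic ribosome is built from a small subunit, which reads the messenger RNA, and a large subunit, which joins the amino acids. Each ribosome holds a single copy of nearly every ribosomal protein, and in liver their mRNAs are among the most abundant. Ribosomal protein mRNAs carry a run of pyrimidines at the very 5′ end, the terminal oligopyrimidine (TOP) tract, through which growth signals act on their translation. For that reason the amount of ribosomal protein made can change with little change in mRNA level, and several of these genes are used as reference genes for PCR.

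In the PBO study, Sprague-Dawley rats received piperonyl butoxide, a pesticide synergist, by mouth for 7 days at 500, 1000 or 1500 mg/kg, and controls received 0.5% methyl cellulose. In the DAM study, Fischer344 rats ate a diet with dammar resin, a plant resin, for 28 days at 2% or 5% of the diet, equivalent to 800 or 2000 mg/kg, and controls ate basal diet. Each of the 7 groups had 3 livers, labelled as biological replicates, with 1 array each. The PBO livers were kept in RNAlater and the DAM livers were frozen in liquid nitrogen, so strain, route, duration and storage all differ between the studies. Values are MAS5 signals, an intensity on a linear scale that the authors had scaled so that the trimmed mean of every array was 500, and the number of arrays limits the precision. The median signal per array was 94.3 to 114 in the PBO study and 76.0 to 86.2 in the DAM study. The liver label fitted the hepatocyte markers, since albumin (Alb) averaged between 31960 and 59577 in every group. The arrays of the PBO 1500 group stood apart in spread: replicate 3 deviated from its group mean by a root mean square of 0.495 on the log2 scale over all tested probe sets, against 0.276 to 0.368 for the other 11 PBO arrays.

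Of the 48 genes, 38 had mean signals between 6952 and 33069, and the other 10 lay between 12.6 and 1647. The highest means were those of Rps29 (33069) and Rpl26 (26064), followed by Rps23 (24176). The lowest were Rpl3l (12.6), the striated-muscle paralog of Rpl3, Rpl28 (15.9) and Rpl39l1 (25.7). Signals of different probe sets also depend on the probes, so these values rank the probe sets and do not compare transcript amounts. Rpl3l, Rpl28, Rpl39l1 and Rpl30 did not pass the filter on low signals, which kept the 18625 probe sets with a mean above the 40th percentile. Their signals stayed between 1.34 and 101 on all 21 arrays. Rps13 passed in the PBO study but not in the DAM study, so that 44 genes were tested in the PBO study and 43 in the DAM study.

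Replicates differed little for these genes. The residual standard deviation between replicates on the log2 scale had a median of 0.102 over the 44 tested genes in the PBO study, against 0.292 over all tested probe sets. In the DAM study the medians were 0.0918 and 0.189. Rpl41, which encodes a very short basic peptide of the large subunit, varied least in the PBO study (0.0331), and Rps13 (0.702) and Rpl39 (0.568) varied most. The part of signal level in this difference from other probe sets was not tested.

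At 1500 mg/kg of PBO, 4 of the 44 tested genes fell and none rose. These were Rpl21, Rpl24, Rpl41 and Rpl7a, all proteins of the large subunit. The share of 9.09% stands against 9.26% of all 18625 probe sets called lower and 17.3% called in either direction in the same comparison (limma, Benjamini-Hochberg adjusted p under 0.05). The members' share lay close to that of the whole array. At an unadjusted p under 0.05 there were 8 of 44 genes, against 5858 of all 18625 probe sets. The median log2 change of the 44 genes was -0.13, against -0.08 over all probe sets. Of the 44 changes 39 lay below 0, against 10565 of 18625 over all probe sets, and 28 lay below the median of all probe sets. Without PBO 1500 replicate 1 the median of the 44 genes was -0.08. The ratio of 3′ to 5′ signal of actin, a measure of RNA quality, was 2.38 to 2.78 in the PBO 1500 livers, against 2.85 to 3.16 in the controls, and that of Gapdh was 1.07 to 1.14, against 1.13 to 1.17. Their part in the change was not tested. Every change other than that of Rpl21 lay between -0.35 and 0.14. These are whole-liver samples, in which fewer cells of a type and less RNA per cell cannot be told apart.

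Rpl21, a large subunit protein, had signals of 6769, 5303 and 5735 in the PBO 1500 livers, against 10658, 10901 and 8286 in the controls. All 3 dosed livers lay below all 3 controls. The signal was 0.599-fold that of controls (log2 change -0.74 ± 0.185 SE, adjusted p = 0.0155, limma), and the call was lost without control replicate 1 or 2 (-0.69 and -0.67). At 500 and 1000 mg/kg the means were 7958 ± 2113 and 8022 ± 706 (SD, n = 3 each), and both groups overlapped the controls.

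Rpl24, a large subunit protein at the face between the subunits, had signals of 9502, 9711 and 11637 in the PBO 1500 livers and 12902, 13955 and 12440 in the controls. The groups did not overlap, and replicate 3 of the dosed group came nearest to the controls. Its log2 change was -0.35 ± 0.105 (SE), 0.783-fold, with a limma adjusted p of 0.0349. Leaving out any of 5 of the 6 arrays ended the call, all but PBO 1500 replicate 3, with log2 changes between -0.45 and -0.30 over the 6 fits.

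Rpl41 had signals of 14758, 14850 and 15343 in the PBO 1500 livers, against 19110, 18558 and 19467 in the controls. The 3 dosed values lay within 585 units of each other and well below the controls. The log2 change was -0.35 ± 0.0797 (SE), 0.787-fold, with a limma adjusted p of 0.0102, and the call held without any 1 of the 6 arrays. It did not hold with median scaling, with quantile normalization, without the variance trend or with only the 6 compared arrays. Without the trend and with only the compared arrays, Rpl21 was the single gene called (limma adjusted p = 0.0399 and 0.0283). Of all probe sets 7.67% and 3.89% were then lower. Over the 4 doses in order the means were 19045, 16948, 14794 and 14984, so that the level at 1000 mg/kg was already that at 1500 mg/kg.

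Rpl7a, a large subunit protein, had signals of 19125, 20569 and 21125 in the PBO 1500 livers and 23378, 26230 and 25572 in the controls. No dosed liver reached the lowest control. The log2 change was -0.31 ± 0.087 (SE), 0.809-fold, with a limma adjusted p of 0.0296. It lost its call without control replicate 2, control replicate 3 or PBO 1500 replicate 1 (-0.27, -0.29 and -0.26).

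**Figure D1:**
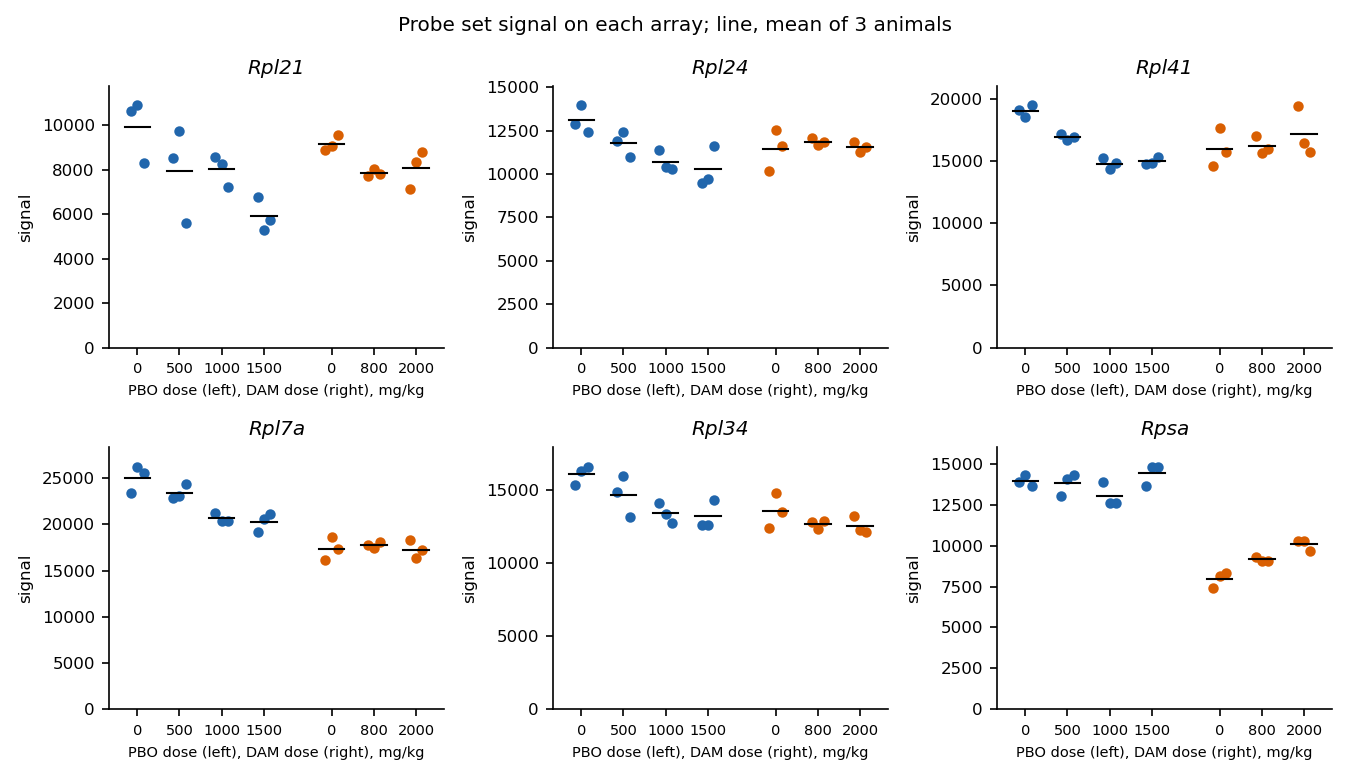
Signal of the 6 genes called in a dosed comparison, on a linear axis from 0, for each of the 21 arrays by dose in mg/kg (PBO left, DAM right); points are single livers and lines are means of 3. Rpl41 averaged 14794 and 14984 at 1000 and 1500 mg/kg of PBO, against 19045 in controls, and every Rpsa value at either DAM dose lay above the DAM controls.

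For the other tested genes the measurement is precise enough to give narrow bounds. The 95% confidence interval of the change at 1500 mg/kg lay within 1.5-fold in either direction for 39 of 44 genes (88.6%), against 20.2% of all tested probe sets. The 5 genes with wider or lower intervals were Rpl21, Rps3, Rpl39, Rps4y2 and Rps13. Of the 13 small subunit proteins none was called, with changes between -0.30 and 0.05. Of the 27 tested large subunit proteins 4 were (14.8%), against 17.3% of all probe sets. The difference between the subunits was not tested. Among the reference genes, the change of Rplp0, the stalk protein P0, was -0.04 (95% interval -0.23 to 0.15), that of Rpl19 was 0.00 (-0.19 to 0.19) and that of Rpl27 was -0.06 (-0.25 to 0.12). Rpl13a, a large subunit protein that is also known for a role outside the ribosome, had -0.21 (-0.48 to 0.06).

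**Figure D2:**
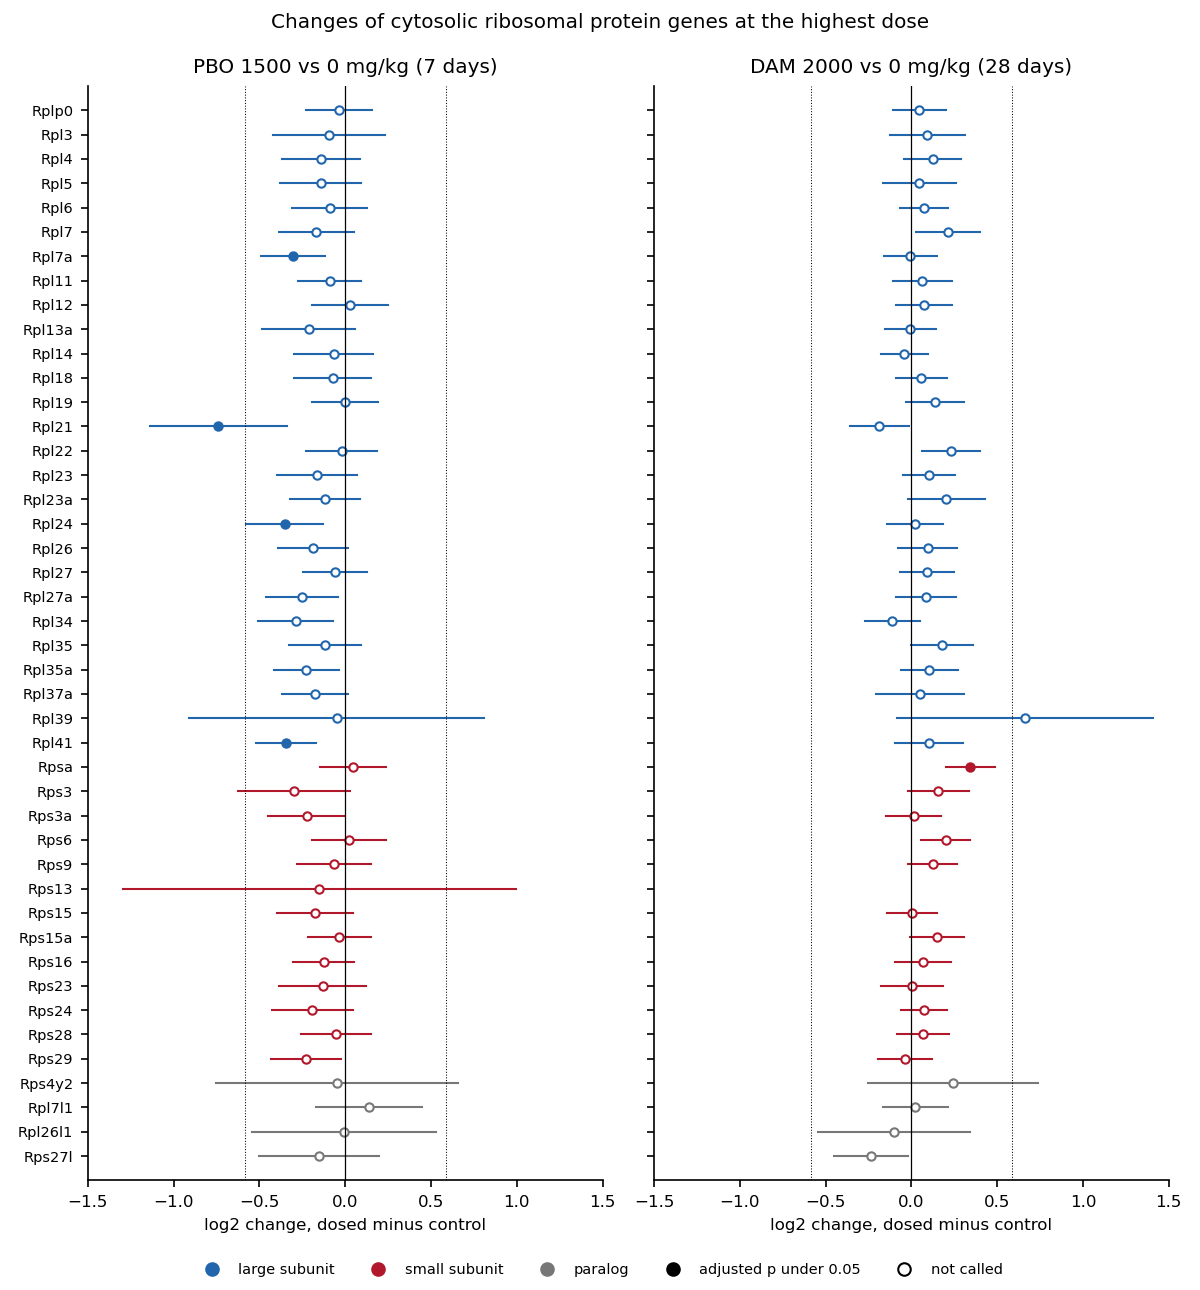
Log2 change of each tested gene, dosed minus control, at the highest dose of PBO (left, 44 genes) and DAM (right, 43 genes, without Rps13), with 95% confidence intervals from limma; dotted lines mark 1.5-fold and filled points an adjusted p under 0.05. In PBO the 4 filled points lie below 0, and in DAM the filled point is Rpsa at 0.34.

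At 1000 mg/kg of PBO the only call was Rpl41, 1 of 44 genes (2.27%), against 1.23% of all probe sets called lower and 3.12% in either direction. Its signals were 15222, 14337 and 14823 in the PBO 1000 livers, against the control values given above. No PBO 1000 value reached the lowest control. The log2 change was -0.36 ± 0.0797 (SE, limma adjusted p = 0.0272). Leaving out any of the 3 PBO 1000 or 3 control arrays ended this call, and leaving out PBO 1500 replicate 3 raised the number of genes called to 5 (3.51% of all probe sets were then called lower). The median change was -0.17, against -0.05 over all probe sets. Of the 44 changes 41 were below 0, against 10478 of 18625 over all probe sets, and 40 lay below the median of all probe sets. An unadjusted p under 0.05 was reached by 12 of 44 genes, against 2930 of 18625 probe sets. The actin ratio was 2.38 to 2.50 in the PBO 1000 livers and 2.61 to 2.83 in the PBO 500 livers, both below the 2.85 to 3.16 of the controls. At 500 mg/kg none of the 44 genes was called (limma), against 0.478% of all probe sets, and the median was -0.05. At an unadjusted p under 0.05 there was 1 gene, against 1858 of 18625 probe sets. That gene was Rps3, named after its values were seen, a small subunit protein at the mRNA entry site with a log2 change of -0.40 (adjusted p = 0.38).

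A straight line through the 4 PBO doses gave 5 falling genes of 44 (11.4%), against 8.84% of all probe sets called lower and 16.8% in either direction. The slopes per 500 mg/kg on the log2 scale were -0.22 ± 0.060 for Rpl21, -0.12 ± 0.0284 for Rpl41, -0.12 ± 0.0327 for Rpl24, -0.11 ± 0.0285 for Rpl7a and -0.10 ± 0.0321 for Rpl34 (SE, limma adjusted p between 0.00848 and 0.0473). Rpl34, another large subunit protein, averaged 16105, 14684, 13416 and 13209 over the doses 0, 500, 1000 and 1500 mg/kg. At 1500 mg/kg its signals were 12656, 12601 and 14370, against 15353, 16353 and 16607 in controls. The groups did not overlap, and that pairwise change of -0.29 had an adjusted p of 0.0684. The slope of Rpl34 lost its call in 10 of the 12 fits that each left out 1 array. The call stayed without PBO 500 replicate 3 and without PBO 1500 replicate 3.

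The PBO 1500 group was not uniform for these genes. Taking each array's difference from the control mean, the median over 43 genes was -0.22, -0.14 and 0.01 in PBO 1500 replicates 1 to 3, against -0.06, 0.04 and 0.02 in the 3 controls. Under the deposited scaling, replicate 3 thus lay among the controls, while replicates 1 and 2 lay below them. With arrays scaled to a common median the replicates lay at -0.16, -0.04 and 0.23, against -0.01, 0.05 and -0.04 in controls. With quantile normalization they lay at -0.07, -0.07 and 0.18, against 0.01, 0.03 and -0.04. Without replicate 1 the number of genes called at 1500 mg/kg was 2, where 10.1% of all probe sets were lower. Without control replicates 1, 2 or 3 it was 2, 1 and 2, where 5.57%, 6.12% and 5.32% were lower. Without replicate 3, 10 genes were lower at 1500 mg/kg, among them the same 4, where 8.99% of all probe sets were lower. The slope then called 13 genes, including the same 5, where 8.46% of all probe sets were lower. It called 2 without replicate 1 or 2, where 7.69% and 7.35% of all probe sets were lower. Without control replicates 1, 2 or 3 it called 3, 1 and 3, where 6.35%, 6.69% and 5.9% were lower. In the PBO 1000 livers the medians were -0.10, -0.21 and -0.24, and in the PBO 500 livers they were -0.10, -0.01 and -0.06.

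The downward tilt depended on how arrays were put on one scale. Scaling each array to a common median moved the change of all probe sets at 1500 mg/kg by 0.12 on the log2 scale. The members' median was then -0.00 and none of the 4 genes was called (limma, 0 of 44), where 16.6% of all probe sets were called. Relative to the median of all probe sets the members lay at -0.05 with the deposited scaling and at -0.04 with median scaling. Quantile normalization gave 0.04 and 1 call, Rpl21, where 8.2% of all probe sets were lower. At 1000 mg/kg the members lay below the median of all probe sets under each scaling, at -0.12, -0.11 and -0.10 relative to it.

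**Figure D3:**
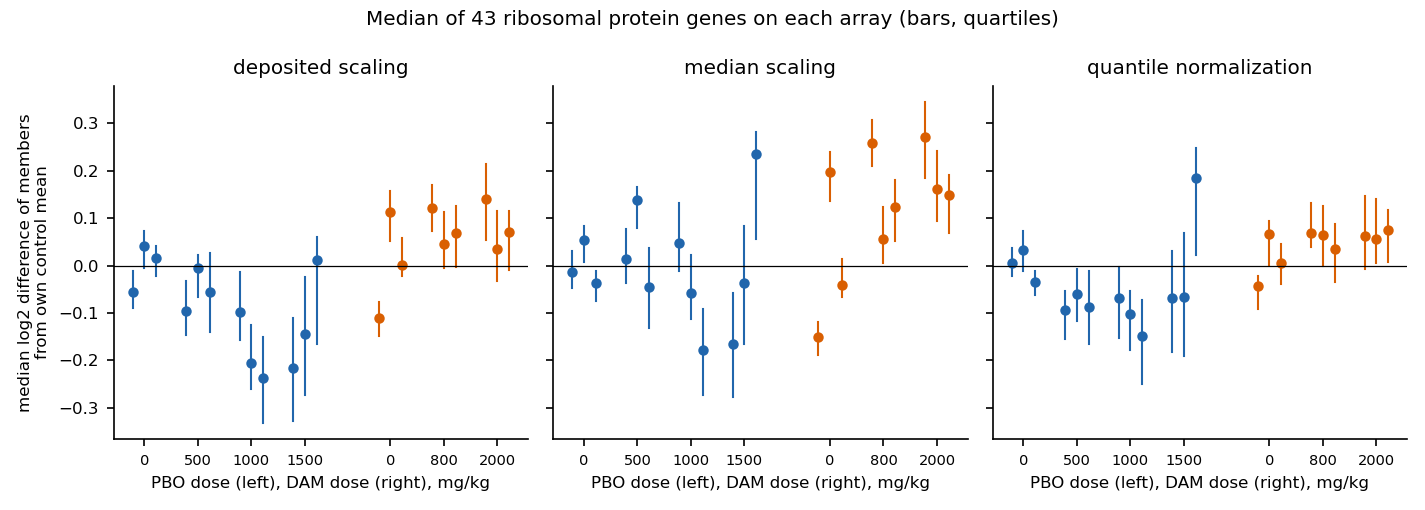
Median log2 difference of 43 genes from the mean of the study's own controls, for each array by dose in mg/kg (PBO left, DAM right), under the deposited scaling, median scaling and quantile normalization; bars run from the lower to the upper quartile over genes. PBO 1500 replicate 3 lies at 0.01, 0.23 and 0.18 in the 3 panels, above the other 2 livers of its group.

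Markers of other cells moved in the same livers. Their counts at 1500 mg/kg are to be read against 8.08% of all probe sets called higher and 9.26% called lower. At 1000 mg/kg these shares of all probe sets were 1.88% and 1.23%. Summed over 9 macrophage genes, the signal was 3301 to 15149 in the PBO 1500 livers, against 18259 to 20992 in the controls, and 3 of 9 genes fell (Clec4f, C1qa and C1qb). The summed signal of 9 lymphocyte genes was 287 to 379, against 787 to 817, with 1 of 3 tested genes lower (Gzmb). That of 5 erythroid genes was 14529 to 22018, against 25250 to 26389, with 3 of 4 tested genes lower and Tfrc higher. In this sum Tfrc averaged 10494, against 3623 in controls, and Hbb 6913, against 21253. The 8 endothelial and stellate genes summed to 5484 to 10453, against 12384 to 14149, and 3 of 8 fell. Col3a1 (mean 3880, against 7258) and Kdr (1779, against 3219.5) made most of that sum. Dcn (614, against 441.5), Col1a1 (289, against 201) and Des (128, against 121) averaged higher than in controls. Of the 3 tested cholangiocyte genes Epcam rose, and the summed signal of 5 was 3507 to 4277, against 1135 to 1436. Epcam made most of that sum, with a mean of 3512, against 824 in controls. Krt19 (166.5, against 204) and Krt7 (21.5, against 48.1) averaged lower, and Spp1 (181, against 136) and Cldn4 (39.5, against 29.9) higher. Of the 9 hepatocyte genes Fgb and Cps1 fell. At 1000 mg/kg Hbb (-1.14) and Cps1 (-0.50) fell and Epcam rose (0.86), at limma adjusted p values of 0.019, 0.0381 and 0.00299. The erythroid sum was 10676 to 14502 in the PBO 1000 livers, against 25250 to 26389 in the controls, and the macrophage sum was 10681 to 16340, against 18259 to 20992, with none of its 9 genes called. Tfrc averaged 2918 at 1000 mg/kg and 10494 at 1500 mg/kg, so the erythroid sums do not rank these doses. Hbb, Alas2 and Slc4a1 averaged 9722, 377 and 68.7 at 1000 mg/kg and 6913, 227 and 35.8 at 1500 mg/kg. The lymphocyte sum was 332 to 683, against 787 to 817, the endothelial and stellate sum 9891 to 11590, against 12384 to 14149, and the cholangiocyte sum 1558 to 2102, against 1135 to 1436. In the cholangiocyte sum Epcam averaged 1518, against 824, while Krt19, Krt7, Spp1 and Cldn4 each averaged below the controls. No marker was listed at 0. The part of these shifts in the changes of the ribosomal protein genes was not tested.

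The start regions of the called genes are shown because the TOP tract lies at the first transcribed base. Promoter sequences from RefSeq (GRCr8) were found for 41 of the 48 genes, and each line gives the 50 bases from 30 before to 20 after the annotated start, on the gene's strand, with the longest run of C or T in capitals. The coordinates are chr12:13386134-13386183 for Rpl21, chr2:221962264-221962313 for Rpl34, chr11:58128386-58128435 for Rpl24 and chr7:1563478-1563527 for Rpl41, all on the minus strand, and chr3:30637106-30637155 for Rpl7a and chr8:128728849-128728898 for Rpsa, both on the plus strand.
Rpl21: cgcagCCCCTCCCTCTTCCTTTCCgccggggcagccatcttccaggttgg
Rpl34: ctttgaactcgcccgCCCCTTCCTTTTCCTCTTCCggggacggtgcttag
Rpl7a: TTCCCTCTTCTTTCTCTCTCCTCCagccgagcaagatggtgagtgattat
Rpl24: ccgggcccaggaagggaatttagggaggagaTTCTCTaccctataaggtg
Rpl41: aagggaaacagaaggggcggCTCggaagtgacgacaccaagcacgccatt
Rpsa: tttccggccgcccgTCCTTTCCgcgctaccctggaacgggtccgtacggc
The longest run was at least 24 bases for Rpl7a, where it begins at the first base of the window and may go on before it, 20 for Rpl34, 19 for Rpl21, 8 for Rpsa, 6 for Rpl24 and 3 for Rpl41. The runs of Rpl7a, Rpl21, Rpsa and Rpl41 begin 30, 25, 16 and 10 bases before the annotated start and end before it. That of Rpl34 begins 15 bases before the start and crosses it, and that of Rpl24 begins at transcribed base 2. These lengths are therefore not lengths of TOP tracts. A run of at least 8 pyrimidines on the gene's strand occurred in 27 of 41 genes (65.9%), against 19.9% of the 33469 promoters in the table over the same window. The letters CTTTC, which can lie inside such a run, occurred in 19 of 41 (46.3%), against 6.45%. Their reverse complement GAAAG occurred in 0 of 41, against 6.27%. The genes that fell with PBO thus had both long and short runs in this window. These letters describe the window, and neither a TOP tract in the mRNA nor a bound factor.

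In the DAM study the genes leaned slightly the other way. At 2000 mg/kg, 1 of 43 genes rose and none fell (2.33%), against 6.22% of all probe sets called higher and 12.3% in either direction (limma). The median change was 0.07, against -0.04 over all probe sets. Of the 43 changes 35 lay above 0, against 8398 of 18625 over all probe sets, and 38 lay above the median of all probe sets. The members' median was 0.03 without DAM control replicate 1 and 0.14 without DAM control replicate 2, its lowest and highest. It was 0.05 without DAM 2000 replicate 1. Median scaling moved all probe sets by 0.10. Relative to the median of all probe sets the members lay at 0.11 with the deposited scaling, 0.12 with median scaling and 0.06 with quantile normalization. The 95% interval lay within 1.5-fold for 41 genes. Rpl39 and Rps4y2 had wider intervals.

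The gene that rose was Rpsa, a small subunit protein also known as the laminin receptor. Its signals were 10322, 10311 and 9691 in the DAM 2000 livers and 7442, 8148 and 8328 in the controls. Every dosed liver lay above every control, and the values at 800 mg/kg (9346, 9067 and 9104) lay between the groups. The change at 2000 mg/kg was 1.27-fold (log2 0.34 ± 0.0652 SE, limma adjusted p = 0.00439). Both other probe sets of Rpsa rose as well, by 0.44 and 0.35 on the log2 scale (adjusted p = 0.00293 and 0.00593). The call held under each alternative processing and without any 1 of the 6 arrays, with log2 changes between 0.29 and 0.38 over the fits that left out an array.

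At 800 mg/kg of DAM no gene of 43 was called (limma), against 3.79% of all probe sets. An unadjusted p under 0.05 was reached by 5 genes, against 2977 of 18625 probe sets. The median change was 0.09, against -0.02 over all probe sets (0.02 without DAM control replicate 1 and 0.13 without DAM control replicate 2), and Rpsa stood at 0.20 (adjusted p = 0.122). The reference genes at 2000 mg/kg had changes of 0.05 for Rplp0 (95% interval -0.11 to 0.20), 0.14 for Rpl19 (-0.03 to 0.31), 0.09 for Rpl27 (-0.06 to 0.25) and -0.01 for Rpl13a (-0.16 to 0.14). The controls were themselves spread: their medians against the control mean were -0.11, 0.11 and 0.00, against 0.14, 0.04 and 0.07 in the DAM 2000 livers, so that the groups overlapped. Without DAM control replicate 2 the number of genes higher at 2000 mg/kg was 3 (Rpl22 and Rpl23a were added), where 5.4% of all probe sets were higher. Without DAM control replicate 3 it was 2 (Rpl39 was added), where 4.93% of all probe sets were higher. These additions are named after their values were seen. Marker counts at 2000 mg/kg are to be read against 6.22% of all probe sets called higher and 6.11% called lower. Of the markers at 2000 mg/kg, 1 of 9 macrophage genes fell (Cd68), and their summed signal was 13446 to 16632 in the DAM 2000 livers, against 17865 to 19082 in controls. Of 8 endothelial and stellate genes 2 fell (Lrat and Col3a1), and their sum was 9685 to 11391, against 12554 to 14010 in controls. Epcam was the cholangiocyte gene that rose, of 2 tested (sums 1613 to 1788, against 714 to 963 in controls), and Tfrc the erythroid gene that rose, of 4 (16753 to 28535, against 16907 to 20809 in controls). Epcam made most of the cholangiocyte sum (mean 1465, against 561). Krt19 (158, against 201), Krt7 (5.35, against 5.82) and Cldn4 (26.4, against 29.2) averaged lower, and Spp1 higher (46.0, against 41.0). Apoa1 rose and Tat fell among 9 hepatocyte genes, and none of 6 tested lymphocyte genes was called (limma; sums 377 to 543, against 505 to 612 in controls). Their part in the changes of the ribosomal protein genes was not tested.

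The paralogs give variants of the ribosome or proteins with other roles. Of the 4 tested, none was called at any dose, where 0.478% (PBO 500) to 17.3% (PBO 1500) of all probe sets were called. So few genes say little about the paralogs as a set. Rps27l, a small subunit paralog that p53 induces in human cells, had 698, 741 and 1114 in the PBO 1500 livers, against 997, 859 and 930 in controls, and the groups overlapped. In the DAM 2000 livers it had 584, 515 and 548, against 629, 645 and 674 in controls. These DAM groups did not overlap, with a log2 change of -0.24 and an adjusted p of 0.149. Rpl7l1, which is known from ribosome assembly in human cells, had changes of 0.14 at PBO 1500 and 0.02 at DAM 2000. Rpl26l1 had -0.01 and -0.10, and Rps4y2, a form of the small subunit protein S4 whose RefSeq entry lies on chromosome 4 in the rat, had -0.05 and 0.24, with wide intervals (-0.75 to 0.66 and -0.26 to 0.74).

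The PBO 1500 change and the DAM 2000 change were compared in 1 fit over all 21 arrays, although doses, durations and strains differ. A single gene of 43 differed (2.33%), against 2.77% of all probe sets with a lower PBO change and 4.91% in either direction. This was Rpl41, whose change with PBO was lower by 0.45 on the log2 scale (-0.45 ± 0.119 SE, limma adjusted p = 0.0345). Its DAM signals were 19430, 16434 and 15749 at 2000 mg/kg, against 14591, 17661 and 15739 in controls. These DAM groups overlapped, with a change of 0.10. The difference lost its call without any of the 3 PBO controls, PBO 1500 replicate 1, DAM controls 1 or 3, or DAM 2000 replicate 1 (log2 differences -0.47 to -0.36). Without PBO 1500 replicate 2 the count of genes that differed was 2, and without replicate 3 it was 4. Of all probe sets 4.53% and 3.5% then had a lower PBO change. The median difference over the 43 genes was -0.19, against -0.04 over all probe sets. With median scaling it was -0.18, against -0.03 over all probe sets, and with quantile normalization -0.03, against -0.02.

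Of the 8 comparisons, that between the undosed livers of the PBO and DAM studies had the most genes called. In PBO controls 31 of 43 genes were higher than in DAM controls and none was lower (72.1%), against 18.2% of all probe sets called higher and 33.1% in either direction (limma). The median log2 difference was 0.36, against 0.05 over all probe sets. Among the 31 were 10 of 12 small subunit proteins, 19 of 27 large subunit proteins and the paralogs Rpl7l1 and Rps27l. Strain, vehicle or diet, storage of the liver and study cannot be told apart here.

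The largest difference was that of Rpl7l1, with 2185, 2312 and 1869 in PBO controls, against 988, 915 and 1053 in DAM controls (log2 1.09 ± 0.119 SE, adjusted p = 8.06e-07). The groups lay far apart, but the second probe set of Rpl7l1 differed by 0.21 with an adjusted p of 0.245. Rps3 had 15623, 18707 and 15772, against 7221, 9088 and 7904 in DAM controls (1.05 ± 0.13, adjusted p = 3.93e-06). Rps16, a small subunit protein near the decoding site, differed by 0.83 ± 0.0747, Rpsa by 0.81 ± 0.0728 and Rps24, a protein mutated in Diamond-Blackfan anemia in humans, by 0.70 ± 0.0893 (adjusted p up to 5.98e-06). The other probe sets of Rpsa differed less (0.40, called, and 0.27, not called), and that of Rps24 by 0.37 (adjusted p = 0.39). Other genes hardly differed: Rpl13a by 0.06 ± 0.104, Rps23, a decoding-site protein, by 0.07 ± 0.105 and Rpl19 by 0.12 ± 0.0818. Rplp0 and Rpl27 were higher by 0.62 and 0.47, so that the differences of the 4 reference genes ran from 0.06 to 0.62.

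RNA and scaling measures moved with the same contrast. The ratio of 3′ to 5′ signal was 2.85 to 3.16 for actin in PBO controls, against 7.08 to 9.81 in DAM controls, and 1.13 to 1.17 for Gapdh, against 1.62 to 1.74. Their part in the difference was not tested. Scaling to a common median moved all probe sets by -0.37, the members' median to -0.04 and the calls to 5 higher and 2 lower, where 8.59% of all probe sets were higher and 35.9% lower. Relative to the median of all probe sets, the members were higher by 0.31 with the deposited scaling, 0.29 with median scaling and 0.25 with quantile normalization. Above that median lay 41, 39 and 39 of the 43 genes.

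**Figure D4:**
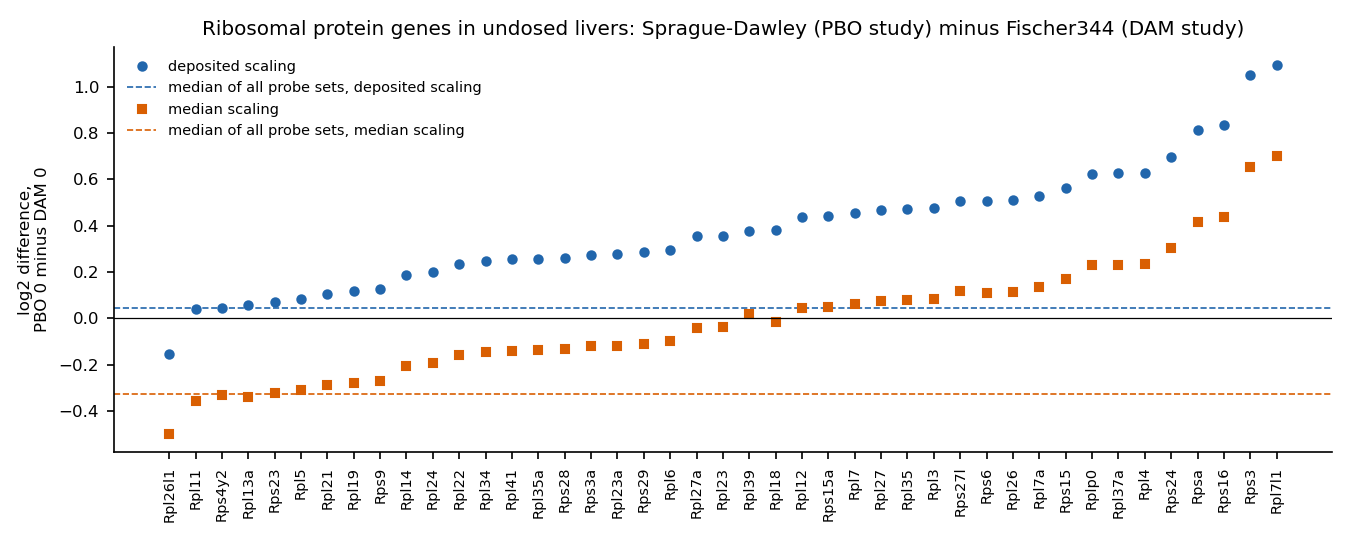
Log2 difference of each of 43 genes between undosed livers, PBO study minus DAM study, under the deposited scaling (circles) and median scaling (squares), ordered by the deposited values; dashed lines are the medians of all tested probe sets. The genes run from -0.15 for Rpl26l1 to 1.09 for Rpl7l1, and both sets of points lie mostly above their dashed line.

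The probe sets with several symbols, which carry Rps18, Rpl32 and other ribosomal proteins that have no probe set of their own here, were read the same way. At PBO 1500, 6 of 36 were lower (16.7%, against 9.26% of all probe sets) and none higher. The PBO slope called 10 lower (27.8%, against 8.84% of all probe sets and 11.4% of the 44 genes). Whether these shares differ from that of the 44 genes was not tested. At DAM 2000 none of 35 was called (limma), against 12.3% of all probe sets. An unadjusted p under 0.05 was reached by 6 of 35, against 4974 of 18625 probe sets. Between the undosed livers 24 of 36 were higher in the PBO study (66.7%, against 18.2% of all probe sets).

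Other genes of the ribosome's making and use were read beside the members. The lists were chosen with results of these data known. At DAM 2000, 23 of 73 mitochondrial ribosomal protein genes, which serve the separate ribosome of mitochondria, rose and 1 fell. These shares of 31.5% and 1.37% stand against 6.22% and 6.11% of all probe sets called higher and lower. The median of the 73 genes was 0.25, against 0.07 for the cytosolic genes. The examples with the smallest adjusted p were Mrps18b (0.73), Mrpl49 (0.68) and Mrps2 (0.48), all at an adjusted p of 0.00254 or less. At PBO 1500, 10 rose and 4 fell (13.7% and 5.48%, against 8.08% and 9.26% of all probe sets), with a median of 0.02. Mrpl49 (1.30), Mrpl17 (0.87) and Mrps18b (0.86) had the smallest adjusted p, and Mrps6 (1.40), named after its values were seen, had the largest rise. The difference between the mitochondrial and cytosolic lists was not tested.

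Of 43 tested ribosome assembly factors, 10 rose and 1 fell at DAM 2000 (23.3% and 2.33%, against 6.22% and 6.11% of all probe sets). Among those that rose were Nhp2 (0.65), of the box H/ACA particles that modify ribosomal RNA, Ebna1bp2 (0.47), a nucleolar protein, and Ftsj3 (0.59), a ribosomal RNA methyltransferase. At PBO 1500, 4 rose, among them Nhp2 (1.13) and Nop16 (0.49), a nucleolar protein, and 2 fell, among them Nop10 (-0.61), the partner of Nhp2 in the same particle. The shares at PBO 1500 were 9.3% higher and 4.65% lower, against 8.08% and 9.26% of all probe sets. None of 11 tested genes, those of subunits and initiation factors of RNA polymerase I, which makes ribosomal RNA, and the transcription factor gene Myc, was called at either dose (limma). Of 25 initiation factors, 3 rose at PBO 1500 (Eif4g1 by 1.18, Eif1ax by 0.74 and Eif2s2 by 0.36) and 2 at DAM 2000 (Eif1ax by 0.37 and Eif4g1 by 0.25). These were 12% and 8% of the list, against 8.08% and 6.22% of all probe sets called higher. Eif4g1 is the scaffold of the cap-binding complex.

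Of 13 elongation factors and other TOP genes, Nap1l1, a histone chaperone, rose by 1.35 and Eef2, which moves the ribosome along the mRNA, fell by 0.37 at PBO 1500. At DAM 2000 Nap1l1 (0.47) and Eif3k (0.49), an initiation factor subunit, rose. Among 12 regulators of TOP mRNA translation, Eif4ebp1, which holds back cap-dependent initiation, rose by 0.83 at PBO 1500 and by 0.89 at DAM 2000. With PBO, Rheb, an activator of mTORC1, rose by 0.37 and Tsc1, which restrains it, fell by 0.68. With DAM, Eef2k, the kinase of Eef2, rose by 1.06, and Sesn2 (-1.49) and Ddit4 (-1.05), both of which restrain mTORC1, fell. The adjusted p of these genes lay under 0.05 in limma, and their share is to be read against the 17.3% and 12.3% of all probe sets called at PBO 1500 and DAM 2000.

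**Figure D5:**
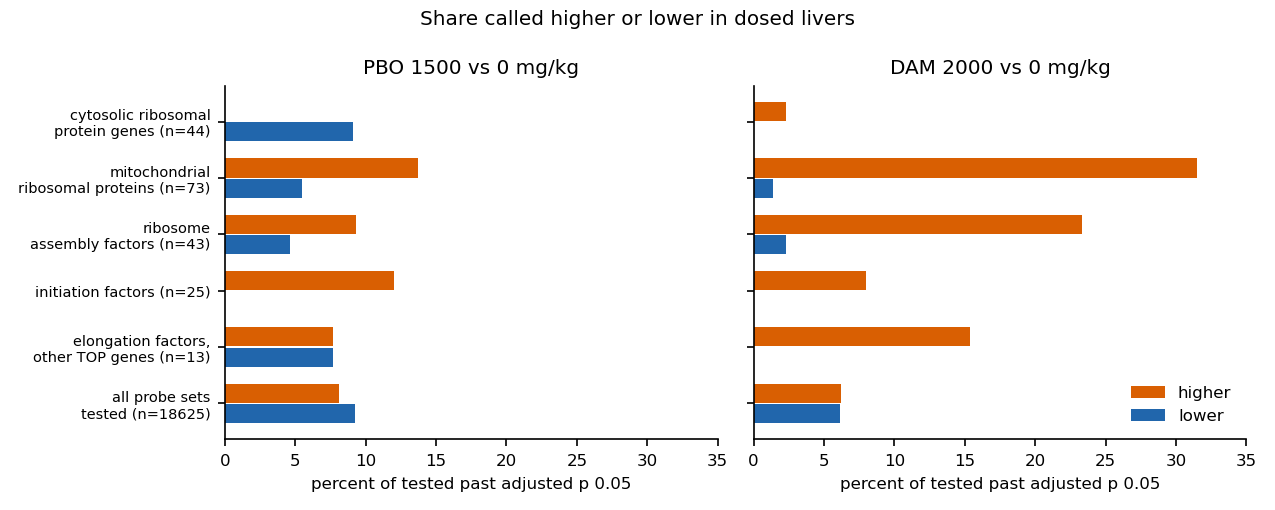
Percent of tested genes called higher (orange) and lower (blue) at the highest dose of PBO (left) and DAM (right) for the cytosolic ribosomal protein genes, 4 other lists and all tested probe sets; bars start at 0, and n in the labels is that of the PBO study (43 cytosolic genes were tested with DAM). The cytosolic genes show 9.09% lower with PBO and 2.33% higher with DAM, and the mitochondrial ribosomal proteins 31.5% higher with DAM.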

How the data were processed

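Total RNA of each liver was labelled by in vitro transcription and hybridised to 1 array per liver. The authors' deposited table holds 1 intensity per probe set and array; per the submitters' processing notes it was made with MAS5 (version not stated), and the values were found to be linear with a trimmed mean of 500 (2% cut at each end). Gene symbols came from the platform annotation, which is from an earlier year than GRCr8. The 57 control probe sets were left out of the tests. Pseudogenes and paralogs of near-identical sequence can share probes, so a probe set's gene is uncertain to that extent.

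Here 16 was added to each signal and log2 taken, probe sets above the 40th percentile of the mean were kept, and linear models with moderated variances and a mean-variance trend were fitted with limma 3.58.1 in R 4.3.3, within each study for the dosed comparisons and over all arrays for the last 2. Fold changes are on that log2(signal + 16) scale and understate the change of low signals. P-values were adjusted by Benjamini-Hochberg over all 18625 probe sets. They rest on the spread between livers within groups, pooled over all groups in the fit and moderated as above. For the slope, this spread also holds departures of the group means from a straight line. The fit was tested on simulated data. Named genes were the largest called changes in each comparison, the paralogs, reference genes and P-stalk genes with Rpsa, the highest and lowest by mean, and up to 3 genes of each other list. The members, lists and rule were chosen with earlier results of these data known. Replicate numbers did not pair the livers: deviations of same-numbered livers correlated between -0.0718 and 0.0341 (PBO) and between -0.0621 and 0.104 (DAM). Alternatives were a pseudocount of 1 or 64, the 60th percentile or no filter on low signals, scaling by quantiles or by the median, no variance trend, a replicate block, only the compared arrays, each array left out, and other probe set choices.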

Additional observations from a re-analysis of the deposited data

Results flagged for a closer look

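Rpl41 was singled out because its change differed between the PBO 1500 and DAM 2000 contrasts in a test of the difference itself. The difference of the log2 changes was -0.449 (SE 0.119, limma adjusted p = 0.0345), made of -0.35 with PBO and 0.10 with DAM. Over the 12 fits that left out 1 array it lay between -0.52 and -0.36, and the call was lost in 7 of them. It was also lost with no filter, quantile normalization, median scaling, no variance trend, the replicate block and only the compared arrays. Strain, route, duration and storage differ between the studies and cannot be told apart from the compound.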

How the results depend on the processing

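The number of genes called moved with most choices, while PBO 500 and DAM 800 had 0 calls under each one (limma). In the fits reported these had 1 and 5 genes at an unadjusted p under 0.05, against 1858 and 2977 of 18625 probe sets. For PBO 1500 (4 genes, 9.26% of all probe sets lower), no filter gave 2, and no variance trend and only the compared arrays 1 each. Quantile normalization gave 1, median scaling 0 and leaving out 1 array 1 to 10. The shares of all probe sets called lower were, in that order, 4.54%, 7.67%, 3.89%, 8.2%, 6.15% and 5.32% to 10.1%. For PBO 1000 (1 gene, 1.23% lower), no filter, quantile normalization, median scaling, no variance trend and the replicate block gave 0. Only the compared arrays gave 2, and leaving out 1 array 0 to 5. The shares lower were, in order, 0.635%, 1.19%, 0.719%, 0.628%, 0.961%, 3.49% and 0.435% to 3.51%. For the PBO slope (5 genes, 8.84% lower), no filter and no variance trend gave 2, quantile normalization 1, median scaling 0, and leaving out 1 array 1 to 13. The shares lower were, in order, 4.17%, 7.72%, 7.79%, 5.37% and 5.9% to 8.56%. For DAM 2000 (1 gene, 6.22% of all probe sets higher), quantile normalization gave 4, median scaling 2, and leaving out 1 array 1 to 3. The shares higher were, in order, 6.83%, 8.96% and 4.08% to 5.4%. For the difference of the compounds (1 gene, 2.77% lower), leaving out 1 array gave 0 to 4. No filter, quantile normalization, median scaling, no variance trend, the replicate block and only the compared arrays gave 0. The shares lower were, in order, 1.44% to 4.53%, 1.17%, 2.68%, 2.14%, 1.85%, 2.12% and 0.875%. For the undosed livers (31 genes, 18.2% higher), median scaling gave 7, where 8.59% of all probe sets were higher and 35.9% lower. Leaving out 1 array gave 22 to 31, where 14.8% to 15.9% were higher. There Rpl13a turned to -0.34 (adjusted p = 0.0485) under median scaling. The replicate block gave 3 genes at PBO 1500 (8.5% of all probe sets lower), 4 for the slope (7.93% lower) and 1 at DAM 2000 (5.55% higher). It was not run for the undosed livers, whose numbers do not cross the studies. At PBO 1500, 10.5% of all probe sets were higher and 6.15% lower under median scaling, against 8.08% and 9.26%. The causes were not tested. Probe sets near background limit what can be said of Rpl3l, Rpl28, Rpl30, Rpl39l1 and Rps13.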
